A study of Mus musculus with 6 samples.

Results

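The 36 genes described here encode aminoacyl-tRNA synthetases, the enzymes that attach each amino acid to its tRNA before it can be used by a ribosome. They were taken by gene name from the known set of these enzymes, and no measured value of a gene decided whether it was included. The cytosolic set holds 20 genes and the mitochondrial set 16, and all 36 were found among the 23420 gene symbols of the count table. Gars and Kars encode enzymes of both the cytosol and the mitochondria, and they are counted in the cytosolic set. The libraries come from splenic B cells of Ahr+/+ and Ahr-/- mice on the C57Bl/6J background, with 3 mice per genotype. The Ahr-/- animals, of the strain B6.129-Ahr tm1Bra/J, carry the allele in every cell of the body, so cells other than B cells also lacked the aryl hydrocarbon receptor (AhR) before the spleen was taken. The mice were over 8 weeks of age by the methods, and their ages at this experiment are not given in the sources used here. In both genotypes, B cells purified with a negative selection kit were cultured for 8 h with anti-IgM at 10 µg/ml, which engages the B-cell receptor, and IL-4 at 20 ng/ml. Both also received 250 nM FICZ, a tryptophan photoproduct that binds AhR, in the last 4 h. The comparison asks how the loss of AhR changed expression in activated B cells exposed to an AhR ligand, and with no other arm the effect of FICZ itself cannot be told apart.

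Each cytosolic synthetase charges the tRNAs that feed cytosolic ribosomes, and a largely separate set of nuclear genes, most of them named with a final 2, encodes the enzymes imported into mitochondria. Several cytosolic synthetases are held together with 3 scaffold proteins in a multisynthetase complex. B cells that leave the resting state after receptor engagement raise protein synthesis, and synthetase genes are among the known targets of MYC and, under amino acid shortage, of ATF4.

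The libraries held between 22095096 and 53648787 counted reads each, so that 3 reads, taken as the floor of detection, correspond to between 0.0555 and 0.134 CPM. Ahr itself averaged 13175 ± 682 normalized counts in Ahr+/+ against 9174 ± 472 in Ahr-/- libraries (SD, n = 3), a log2 fold change of -0.52 (edgeR, adjusted p = 7.1e-06). The count covers the whole gene, so it does not separate the deleted part from the rest. Cyp1a1, a gene that AhR switches on, had 4973, 5437 and 5327 normalized counts in Ahr+/+ libraries against between 2.84 and 6.87 in Ahr-/- libraries. Of the list of Ahr and 5 of its target genes, all 6 fell. Cd79a, a signalling chain of the B-cell receptor that defines B cells, was present at 9564 to 10454 normalized counts in Ahr+/+ and 11150 to 12946 in Ahr-/- libraries. The counts of markers that follow are at an adjusted p under 0.05 in edgeR, where 9.79% of all tested genes were higher and 8.13% lower. Of the 8 B-cell markers, 5 were higher in Ahr-/- libraries, and their summed level was 98748 to 104679 in Ahr+/+ and 115660 to 121605 in Ahr-/- libraries. Of the 10 markers of plasmacytoid dendritic cells, 7 were higher and 1, Tcf4, was lower. Their summed level was 11229 to 12161 in Ahr+/+ and 10019 to 10655 in Ahr-/- libraries, of which Tcf4 alone had 7209 to 7869 and 4419 to 4824 and the other 9 markers 4020 to 4628 and 5194 to 6235. Of the 9 markers of conventional dendritic cells, 5 were higher and 1 was lower, with sums of 1950 to 2297 and 2419 to 2686. Of the 6 plasma cell markers 2 were lower (Igj and Prdm1) and 2 higher (Irf4 and Xbp1), with sums of 34366 to 38529 and 37361 to 37899. Among NK cell markers 2 of 6 were higher, among T cell markers 1 of 8 was higher (Cd5) and 1 lower (Cd3e), and among macrophage markers 1 of 9 was lower (Emr1, by 3.60 on the log2 scale). The part of these marker differences in the values below was not tested, and in bulk libraries fewer cells of a type and less RNA per cell cannot be told apart.

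Expression of the synthetase genes differed little between the genotypes. Of the 36 members, 1 fell and 0 rose without AhR at an adjusted p under 0.05 in the edgeR quasi-likelihood test, against 17.9% of the 13682 tested genes called in either direction, 8.13% lower and 9.79% higher. Among the 7462 tested genes whose mean lies within the range of the members, from 541 to 43709.5 normalized counts, 21.1% were called. At an unadjusted p under 0.05 there were 7 members, all lower, where 29.4% of tested genes passed. DESeq2's Wald test called 4 members lower and 0 higher. Of the 36 members 22 had a log2 fold change below 0, against 49.3% of tested genes and 53.7% of those in the range of the members, and 7 of the 22 turned to above 0 when libraries were scaled by size alone, which also moved the median of all tested genes from 0.0022 to 0.027. The median log2 fold change of Ahr-/- against Ahr+/+ was -0.01 over the members and 0.011 with library size alone, and the size of the fold change regardless of sign had a median of 0.052, against 0.115 over all tested genes and 0.068 over those in the range of the members. The member that fell was Eprs.

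**Figure D1:**
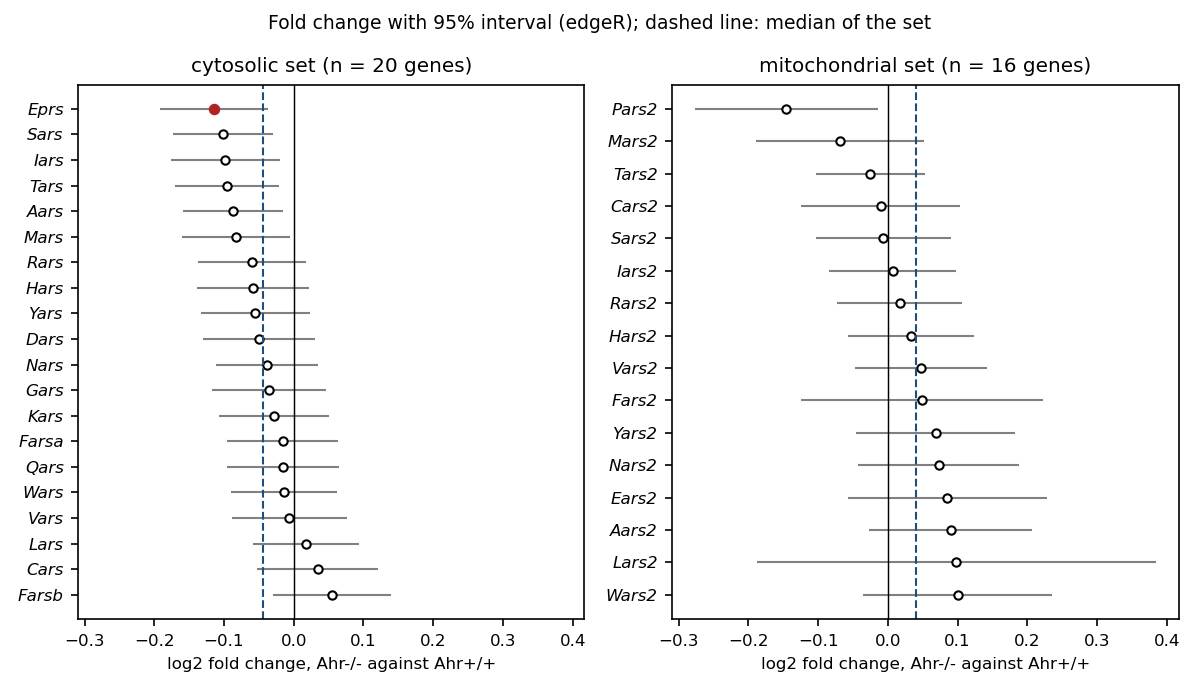
The horizontal axis gives the log2 fold change of Ahr-/- against Ahr+/+ B cells for the 20 cytosolic genes (left) and the 16 mitochondrial genes (right). Points are edgeR estimates with their 95% interval, the filled red point is Eprs, the 1 member with an adjusted p under 0.05, and the dashed line is the median of the set. Of the cytosolic points 17 lie below 0 and of the mitochondrial points 11 lie above 0, though Farsa, Qars, Vars, Wars, Cars2, Sars2 and Tars2 lie above 0 when scaled by library size alone.

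The width of the intervals shows how far this flatness is measured. Over the members, standard errors of the log2 fold change had a median of 0.038. The 95% intervals of all 36 lay between -0.28 and 0.38 on the log2 scale, and without Lars2, the least precise, between -0.28 and 0.24. For the cytosolic set alone they lay between -0.19 and 0.14. A log2 change of 0.5 therefore lay outside the interval of each member in either direction, in the libraries as scaled here.

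Eprs encodes the only cytosolic member with 2 charging activities, a fusion of the glutamyl and the prolyl enzyme. It lies on the forward strand of chr1:185363044-185428360 in GRCm38, with no annotated gene overlapping it. Its normalized counts were 25029, 24314 and 25908 in Ahr+/+ against 22665, 23657 and 23172 in Ahr-/- libraries. All Ahr-/- libraries lay below all Ahr+/+ libraries. The log2 fold change was -0.11 with a standard error of 0.036 (95% interval -0.19 to -0.04), and the adjusted p from edgeR was 0.043. The exact permutation test over the 6 libraries gave its smallest possible two-sided p of 0.1. The call was close to the threshold. Over all alternatives the fold change stayed between -0.14 and -0.09, while the adjusted p lay between 0.012 and 0.17. With the libraries left out in turn, Eprs passed without Ahr+/+ replicate 2 (adjusted p = 0.029 in edgeR) but not without any of the other 5, where its adjusted p lay between 0.058 (without Ahr-/- replicate 3) and 0.17 (without Ahr+/+ replicate 3). It also missed the threshold when libraries were scaled by size alone (adjusted p = 0.11) or with the replicate number as a block (adjusted p = 0.059).

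Both mitochondrial counterparts of Eprs were measured at much lower levels, and neither was called. Pars2, the mitochondrial prolyl enzyme, had 679, 629 and 678 normalized counts in Ahr+/+ against 599, 581 and 616 in Ahr-/- libraries. The groups did not overlap, and the log2 fold change of -0.15 (standard error 0.060) was the lowest of all members, with an adjusted p of 0.13 from edgeR. Ears2, the mitochondrial glutamyl enzyme, had 601, 593 and 527 normalized counts in Ahr+/+ against 613, 602 and 615 in Ahr-/- libraries. These groups also did not overlap, by a margin of under 1 normalized count, and the log2 fold change was 0.09 (standard error 0.065, edgeR adjusted p = 0.43). Ears2 overlaps Ubfd1 on the opposite strand.

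Of the 36 members, 11 had groups that did not overlap, against 33.5% of the tested genes and 38% of those in the range of the members. Among the 11, 10 were lower in Ahr-/- libraries. Among tested genes without overlap, 2156 of 4580 were lower, and 1471 of 2832 in the range of the members. Lower without overlap were thus 10 of all 36 members, against 15.8% of tested genes and 19.7% of those in the range. Of these 10, 9 are cytosolic: Aars, Eprs, Iars, Mars, Nars, Rars, Sars, Tars and Yars. No cytosolic member was higher without overlap. Each of these non-overlapping members has an exact permutation p of 0.1, which is the smallest that 3 mice against 3 allow.

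Sars and Tars lay just outside the threshold. Sars, which charges tRNAs with serine, had 11387, 11263 and 11440 normalized counts in Ahr+/+ against 10607, 10441 and 10734 in Ahr-/- libraries. Its log2 fold change was -0.10 with a standard error of 0.033 (edgeR adjusted p = 0.054). Tars, the threonyl enzyme, had 9458, 9240 and 9287 in Ahr+/+ and 8580, 8873 and 8727 in Ahr-/- libraries. Its log2 fold change was -0.10 with a standard error of 0.034 (edgeR adjusted p = 0.077). The counts of both were tight within a genotype, with a coefficient of variation of 0.80% for Sars and 1.23% for Tars in Ahr+/+ libraries. Under DESeq2's Wald test Eprs, Iars, Sars and Tars all passed, with adjusted p = 0.021 for Sars and 0.043 for Tars. Iars, the isoleucyl enzyme, had 19722, 20711 and 20529 normalized counts in Ahr+/+ against 18459, 18936 and 19556 in Ahr-/- libraries, with a log2 fold change of -0.10 (edgeR adjusted p = 0.086). Without Ahr-/- replicate 3, the edgeR test called Iars and Sars in place of Eprs.

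Aars, the alanyl enzyme, and Mars, the methionyl enzyme, had log2 fold changes of -0.09 and -0.08 (edgeR adjusted p = 0.092 and 0.14). Aars had 13717, 14053 and 13681 normalized counts in Ahr+/+ against 12869, 13114 and 13031 in Ahr-/- libraries. Mars had 9995, 10598 and 10375 in Ahr+/+ and 9688, 9705 and 9842 in Ahr-/- libraries, and every Ahr-/- value lay below every Ahr+/+ value for both genes. Mars overlaps Ddit3 on the opposite strand, and Ddit3 averaged 1568 ± 20.4 normalized counts in Ahr+/+ against 1811 ± 229 in Ahr-/- libraries (SD, n = 3). The libraries were made with a stranded kit, but the strand setting of the counting step is not given in the sources used here, so reads shared between such partners cannot be told apart.

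**Figure D2:**
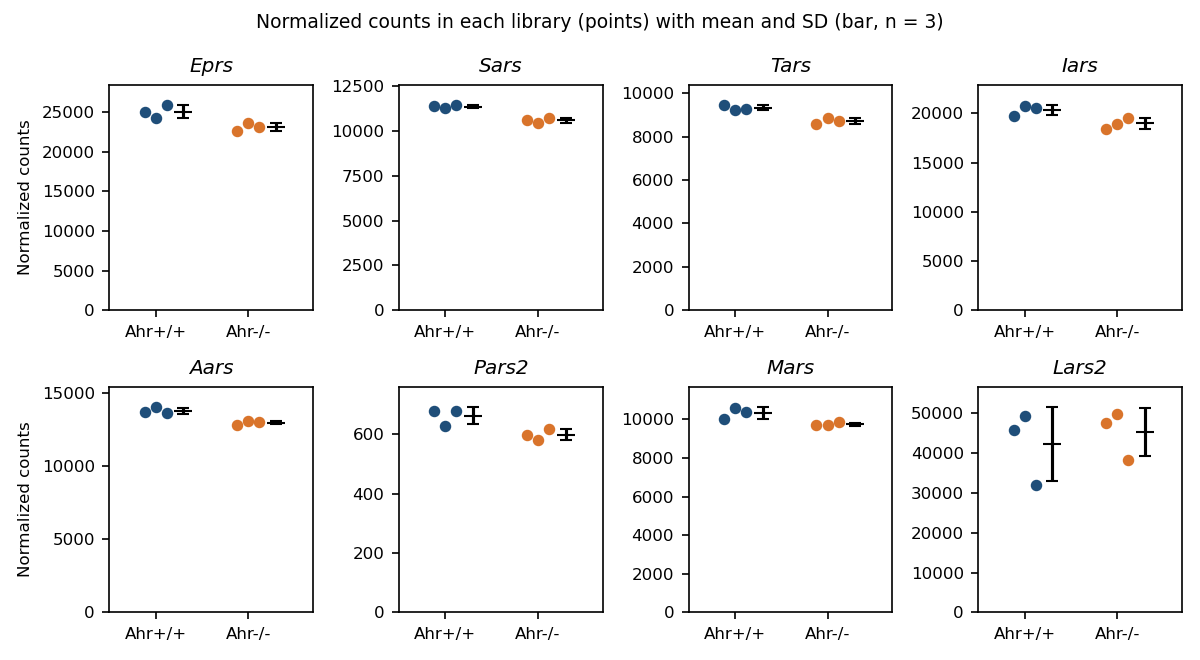
Each panel plots the normalized counts of 1 gene (vertical axis, from 0) in the 3 Ahr+/+ and 3 Ahr-/- libraries as points, in replicate order, with the mean and SD (n = 3) beside them. The 7 members with an unadjusted p under 0.05 are shown with Lars2. In the first 7 panels all Ahr-/- points lie below all Ahr+/+ points, and in Lars2 replicate 3 is the lowest of both genotypes.

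The remaining cytosolic members had log2 fold changes between -0.06 and 0.05. Rars, Hars, Yars and Dars, which charge arginine, histidine, tyrosine and aspartate, lay between -0.06 and -0.05, with edgeR adjusted p values between 0.30 and 0.41. Nars, Gars and Kars, for asparagine, glycine and lysine, lay between -0.04 and -0.03. Farsa, Qars, Wars and Vars, for phenylalanine, glutamine, tryptophan and valine, lay between -0.02 and -0.01, and these 4 turned to above 0 when libraries were scaled by size alone. Lars, Cars and Farsb were the 3 cytosolic genes above 0, at 0.02, 0.03 and 0.05. Farsa and Farsb encode the 2 kinds of subunit of the cytosolic phenylalanyl enzyme. Their ratio per kb of exon was 0.639, 0.681 and 0.629 in Ahr+/+ and 0.589, 0.626 and 0.638 in Ahr-/- libraries, with overlap between the groups.

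The 8 genes of the multisynthetase complex, namely Dars, Eprs, Iars, Kars, Lars, Mars, Qars and Rars, had a median log2 fold change of -0.055, with 7 of the 8 below 0 and Eprs called. The 12 cytosolic genes outside the complex had a median of -0.037, with 10 of 12 below 0. Of these 12, 0 were called by edgeR as reported, where 3 had an unadjusted p under 0.05, and DESeq2 called Sars and Tars. In edgeR, Sars was called with DESeq2's size factors, with at least 10 counts in at least 3 libraries and without Ahr-/- replicate 3. The median over all tested genes was 0.002, and 49.3% of tested genes lay below 0. The complex and the other cytosolic genes thus had close medians, and no test of their difference was run. Cytosolic synthetases also fall into 2 structural classes with unrelated catalytic folds. The 9 genes of class I alone had a median of -0.015 and the 10 of class II alone -0.044, and Eprs, which joins an enzyme of each class, belongs to neither count.

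The mitochondrial set had 0 called members in edgeR and in DESeq2, and 1, Pars2, at an unadjusted p under 0.05 in edgeR. Its median log2 fold change was 0.04 (0.03 without Lars2, 0.021 without Ahr-/- replicate 1 and 0.026 without Ahr+/+ replicate 3), with 11 of 16 above 0, where the cytosolic set had a median of -0.04 with 17 of 20 below 0. With library size alone the medians became 0.066 and -0.019, a shift that all genes share. The cytosolic median minus the mitochondrial median was -0.085, and lay between -0.082 and -0.067 with libraries left out in turn. Wars2, the mitochondrial tryptophanyl enzyme, had the highest log2 fold change of the members, 0.10 (standard error 0.063, edgeR adjusted p = 0.32). It had 871, 826 and 966 normalized counts in Ahr+/+ against 990, 933 and 936 in Ahr-/- libraries, with overlap. Aars2, Nars2 and Yars2 were, beside Lars2 and Ears2, the next at 0.09, 0.07 and 0.07 (edgeR adjusted p between 0.30 and 0.43). Mars2, at -0.07, was the only other mitochondrial gene besides Pars2 beyond 0.05 in the lower direction (edgeR adjusted p = 0.46). The remaining mitochondrial genes other than Lars2 lay between -0.02 and 0.05.

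As shares of all counts in a library, which is a scaling by library size alone, the cytosolic genes took 0.559%, 0.564% and 0.569% of all counts in Ahr+/+ against 0.552%, 0.557% and 0.551% in Ahr-/- libraries. The mitochondrial genes without Lars2 took 0.0604%, 0.0609% and 0.0618% in Ahr+/+ and 0.0640%, 0.0631% and 0.0620% in Ahr-/- libraries. The cytosolic share was lower in Ahr-/- libraries without overlap, and the sum of normalized counts was also, at 217436 to 219849 in Ahr+/+ against 209448 to 212274 in Ahr-/- libraries. The mitochondrial share without Lars2 did not overlap by a narrow margin, but as a sum of normalized counts it overlapped, at 23486 to 23883 against 23696 to 24279. With Lars2 the mitochondrial share was 0.178%, 0.188% and 0.144% in Ahr+/+ and 0.189%, 0.194% and 0.162% in Ahr-/- libraries, with overlap. The ratio of the cytosolic sum to the mitochondrial sum without Lars2, which does not depend on how libraries are scaled, was 9.26, 9.26 and 9.21 in Ahr+/+ and 8.63, 8.83 and 8.89 in Ahr-/- libraries, with no overlap. This is a description of 2 sums chosen with the members known, and no p is given for it. Gars and Kars, which serve both compartments, are in the cytosolic sum.

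The same values can be read gene by gene in 16 pairs of a cytosolic and a mitochondrial gene for the same amino acid, where Fars2 was paired with Farsa. The ratio of their levels per kb of exon was lower in Ahr-/- B cells in 14 of the 16. Of these 16, the pairs Cars with Cars2 and Eprs with Pars2 had a higher mean ratio. Farsb, the other cytosolic phenylalanyl subunit, was not among the pairs, and its ratio to Fars2 was 21.5 ± 2.68 in Ahr+/+ and 21.5 ± 1.63 in Ahr-/- libraries (SD, n = 3), with overlap. In 9 pairs the ratios of the genotypes did not overlap, and all 9 were lower in Ahr-/- libraries. No such share was computed for other pairs of genes, and the ratios restate the opposite medians of the sets. The pair Aars with Aars2 went from 4.26 ± 0.21 to 3.78 ± 0.14 (SD, n = 3). The pair Eprs with Ears2 went from 12.5 ± 1.29 to 10.8 ± 0.33, and Yars with Yars2 from 1.84 ± 0.021 to 1.68 ± 0.16. The others were Hars, Nars, Rars, Sars, Tars and Vars with their counterparts, with Sars over Sars2 going from 5.39 ± 0.11 to 5.05 ± 0.10. The pairs share libraries, and Eprs enters 2 of them, so they are not independent of each other. Hars and Hars2 also overlap head to head on opposite strands.

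**Figure D3:**
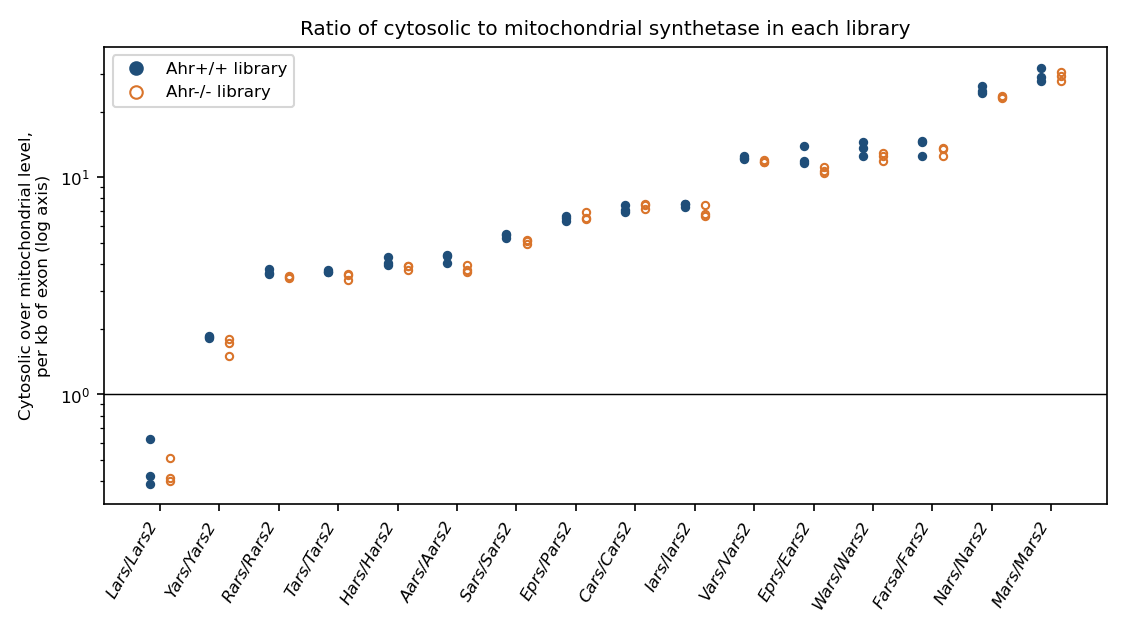
The vertical axis, on a log scale, gives the level per kb of annotated exon of a cytosolic gene divided by that of the mitochondrial gene for the same amino acid, for 16 pairs ordered by their mean in Ahr+/+ B cells. Filled points are the 3 Ahr+/+ libraries and open points the 3 Ahr-/- libraries. In 15 pairs every library lies above 1, and the pair Lars with Lars2 lies below 1 in every library.

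The members spanned a wide range of levels. Per kb of annotated exon in Ahr+/+ B cells, Iars was the highest at 3854 ± 99.9 normalized counts (SD, n = 3), followed by Lars2 at 3807 ± 828, Gars at 3657 ± 57.4 and Vars at 3626 ± 146. Within these 4, no neighbours in the order separated, since in at least 1 Ahr+/+ library the order was turned, while Vars lay above Nars in every Ahr+/+ library. Nars at 3399, Mars at 3016 and Rars at 2786 came next. Rars and Kars, also at 2786, could not be separated, while Nars lay above Mars and Mars above Rars in every Ahr+/+ library. The lowest cytosolic gene was Cars at 738 ± 22.3. It lay below the mitochondrial Rars2, at 761 ± 28.3, in every Ahr+/+ library, though the ranges of the 2 genes overlapped. In their Ahr+/+ means, all cytosolic genes other than Cars lay above all mitochondrial genes other than Lars2.

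The mitochondrial genes below Rars2 ran from Hars2, at 528 ± 23.1 per kb, down to Fars2, the mitochondrial phenylalanyl enzyme, at 92.7 ± 9.71. Ears2, Cars2, Mars2 and Fars2, the last 4, lay between 92.7 and 111, and the Ahr+/+ ranges of neighbours among them overlapped. Ears2 still lay above Cars2 in every Ahr+/+ library. Nars2 lay above Ears2 in every Ahr+/+ library with no overlap of ranges. Fars2 had 507, 597 and 494 normalized counts in Ahr+/+ against 525, 542 and 582 in Ahr-/- libraries, without a scale by length, and the groups overlapped. Cars had 4786, 4764 and 5028 in Ahr+/+ and 5142, 4872 and 4928 in Ahr-/- libraries, also with overlap. The order depends on the length used. With the longest annotated transcript in place of all exons, Lars2 was the highest and Fars2 ranked 34 of 36, and Eprs, whose annotated exons add to 18102 bases, moved from rank 17 to rank 8.

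**Figure D4:**
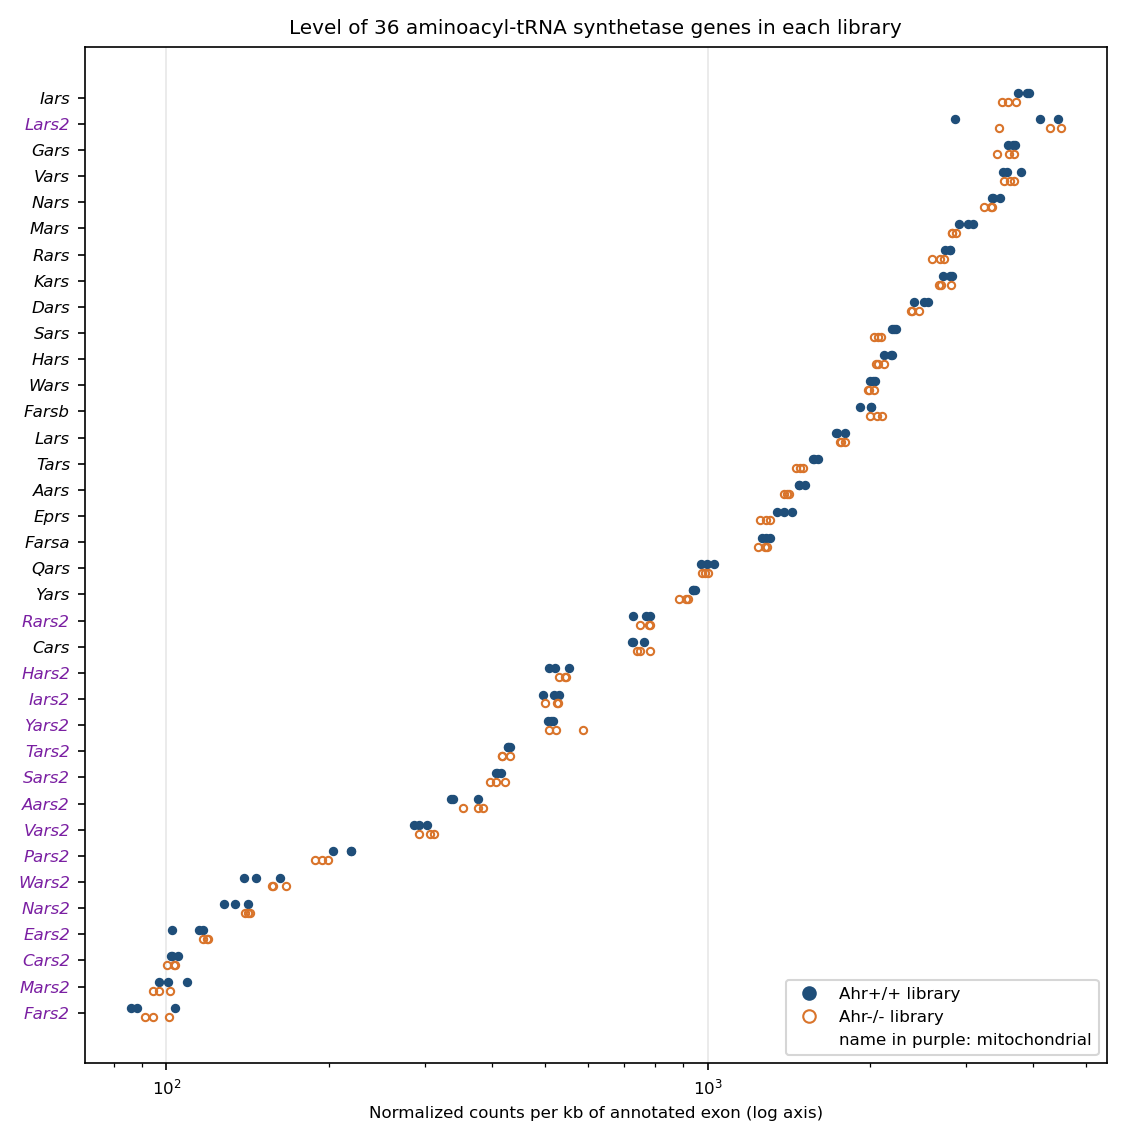
The horizontal axis, on a log scale, gives normalized counts per kb of annotated exon for each of the 36 members, ordered from top to bottom by their mean in Ahr+/+ B cells. Filled points are the 3 Ahr+/+ and open points the 3 Ahr-/- libraries, and names of mitochondrial genes are in purple. Iars leads at 3854 and Fars2 is last at 92.7, and Lars2 is the mitochondrial gene among the highest members.

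Lars2, the mitochondrial leucyl enzyme on chr9:123366927-123462666, stood apart from the other members in level and in spread. It had 45664, 49175 and 31815 normalized counts in Ahr+/+ against 47517, 49786 and 38301 in Ahr-/- libraries. Replicate 3 was the lowest in both genotypes and the groups overlapped. The coefficient of variation was 21.7% in Ahr+/+ and 13.5% in Ahr-/- libraries, where the median over the mitochondrial set was 4.36% and 3.27%. The log2 fold change was 0.10 with a standard error of 0.13 (edgeR adjusted p = 0.68), and it became -0.07 without Ahr+/+ replicate 3 and 0.20 without Ahr-/- replicate 3. A count table does not show whether reads from elsewhere were assigned to Lars2, so its level, rank and ratio to Lars hold for the counts as deposited. Lars2 was the only mitochondrial gene above its cytosolic counterpart per kb. Lars2 over Lars was 2.38, 2.57 and 1.60 in Ahr+/+ and 2.43, 2.51 and 1.96 in Ahr-/- libraries. Lars2 alone took between 0.0823% and 0.131% of all counts in a library, against 0.713% to 0.752% for the 36 members together.

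The promoters of the members were searched for 3 short motifs on both strands, since AhR and ATF4 are both known to bind short DNA sites. RefSeq windows on GRCm38.p6, from 250 bases before to 50 bases after the start, matched 26 of the 36 members, 12 cytosolic and 14 mitochondrial. For 22 of the 26, bases after the start were found in a GENCODE transcript of the gene on the same strand. All 26 were used. Cars, Hars, Lars, Mars, Nars, Rars, Vars, Wars, Hars2 and Pars2 had no window. The core of the site bound by ATF4 with a C/EBP partner is TGATGNAA (CARE core). It was in a window of 5 of the 26 matched members, all 5 cytosolic, against 3.97% of all 32851 windows. Among windows with a GC content at or above the members' median of 57.7%, 1.30% held it. For all 3 motifs members were counted by gene and the background by window, so a gene with more than 1 window has more chances of a match. For each of these 5 promoters 1 match is shown with 10 bases on each side, since the motif was found in windows of 5 cytosolic and 0 mitochondrial members. The matches are written along the strand of the gene, with the motif in capitals.

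Aars, chr8:111033841-111033868: gcgggtcactTTTCATCAgagcgctctg
Gars, chr6:55037961-55037988: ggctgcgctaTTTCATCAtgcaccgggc
Iars, chr13:49682127-49682154: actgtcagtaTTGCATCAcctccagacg
Tars, chr15:11399656-11399683 (reverse strand): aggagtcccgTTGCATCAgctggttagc
Yars, chr4:129189896-129189923: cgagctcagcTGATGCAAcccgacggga

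In the matches shown for all but Yars the motif is on the strand opposite to the gene, so it reads as its reverse complement. Counted from the RefSeq start, the capitals begin at 9 in Aars, -30 in Gars, 7 in Iars, -15 in Tars and 3 in Yars. The E-box CACGTG, to which MYC binds with its partner, was also found for 5 members, namely Aars, Farsb, Iars, Tars and Ears2. It was in 7.15% of all windows and 10.6% of the GC-rich ones. The core of the AhR site, GCGTG, was found for 19 of the 26 matched members, 9 cytosolic and 10 mitochondrial. It was in 32.4% of all windows and 56.7% of the GC-rich ones. Of the 5 genes with a CARE core, Aars, Iars and Tars had groups that did not overlap, as did Yars, where 9 of 20 cytosolic members and 33.5% of tested genes did not, and Gars had a log2 fold change of -0.04. None of the 5 was called by edgeR as reported, while DESeq2's Wald test called Iars and Tars, and edgeR without Ahr-/- replicate 3 called Iars. A match is a description of the letters in the window and no measure of binding.

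Genes that work beside the synthetases were examined as 5 lists. Of 16 partners and other synthetase-related genes, 2 fell and 1 rose (18.8%, close to the 17.9% of all tested genes, median log2 fold change 0.04). Dtd2, a deacylase that removes wrongly attached amino acids from tRNA, had 317, 310 and 330 normalized counts in Ahr+/+ against 170, 170 and 185 in Ahr-/- libraries. Its log2 fold change of -0.86 (edgeR adjusted p = 2.2e-05) exceeded that of any synthetase. Dtd2 lies on chr12:51988312-52006501, the chromosome of Ahr itself at chr12:35497974-35535038, and whether its difference comes with the Ahr allele or with linked sequence of the knockout strain cannot be told apart. Trnt1, which adds the CCA end that every tRNA needs before charging, fell from 5144 ± 200.2 to 4334 ± 170 (SD, n = 3), a log2 fold change of -0.25 (edgeR adjusted p = 0.0015). Dtd1, a relative of Dtd2, rose from 917 ± 40.9 to 1057 ± 38.3 (0.20 on the log2 scale, edgeR adjusted p = 0.020). The scaffolds of the multisynthetase complex, Aimp1, Aimp2 and Eef1e1, had log2 fold changes of -0.04, 0.04 and 0.13, with edgeR adjusted p values of 0.62, 0.49 and 0.12.

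The list of the amino acid stress response holds ATF4, genes known to respond to it and kinases that act upstream of it. Of its 31 tested genes, 7 fell and 3 rose (32.3%, against 17.9% of all tested genes), with a median log2 fold change of 0.02. The size of the log2 fold change regardless of sign had a median of 0.123 in this list, against 0.115 over all tested genes and 0.052 over the synthetases. Vldlr and Stc2, also on the list, were too low to test. Ddit4, an inhibitor of mTORC1, fell from 2421 ± 136 to 692 ± 56.4 normalized counts (SD, n = 3), or by 1.80 on the log2 scale (edgeR adjusted p = 1.1e-09). Ppp1r15a, which helps to reverse the phosphorylation of eIF2, fell by 0.56, and Atf3 fell by 0.40. Eif2ak3, the kinase PERK, which acts upstream of ATF4, rose by 0.60, and Chac1 rose by 0.32. Cth, an enzyme of cysteine synthesis, had 48.7 ± 7.71 and 30.0 ± 7.20 normalized counts and was called at the edge of the threshold (edgeR adjusted p = 0.0496). Atf4 itself had a log2 fold change of -0.04 (edgeR adjusted p = 0.53). The count of called genes in this list was 5 without Ahr+/+ replicate 2, 6 without Ahr+/+ replicate 3 and 6 without Ahr-/- replicate 2.

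The other 3 lists resembled the synthetases in how few of their genes were called. Of 14 genes of cytosolic elongation and termination 1 rose (7.14%, median -0.02), namely Eef2k, the kinase that inhibits elongation factor 2, by 0.24 (edgeR adjusted p = 0.015). Of 26 genes of mitochondrial translation 2 rose (7.69%, median 0.02), namely Hsd17b10, a subunit of mitochondrial RNase P, by 0.21 and Tsfm, an elongation factor, by 0.14 (edgeR adjusted p = 0.0047 and 0.045). Of 40 genes of tRNA transcription and modification 1 fell and 1 rose (5.00%, median -0.01), namely Dus2l, which fell by 0.18, and Tyw1, which rose by 0.18 (edgeR adjusted p = 0.013 and 0.014). The synthetases and these 3 lists all lay under the 17.9% of all tested genes, and no test of a list against other genes was run.

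**Figure D5:**
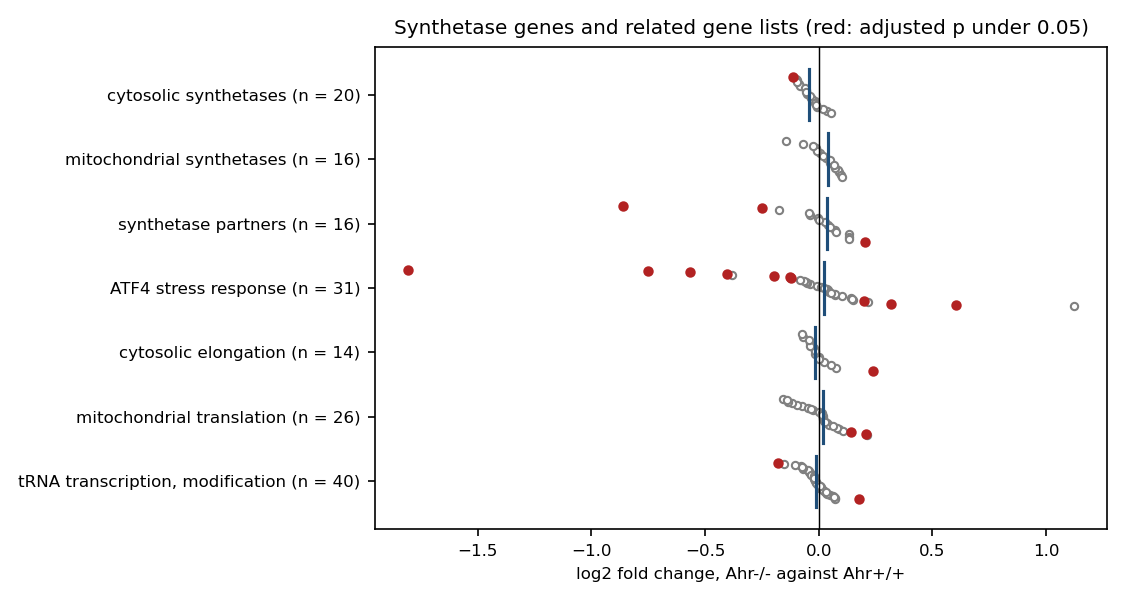
The horizontal axis gives the log2 fold change of Ahr-/- against Ahr+/+ B cells for the cytosolic and mitochondrial synthetases and 5 related lists, 1 point per gene. Filled red points have an edgeR adjusted p under 0.05 and the vertical bar in each row is the median of the list. The synthetases lie between -0.15 and 0.10, while the called genes of the stress response list reach from -1.80 to 0.60 and its highest point is Nupr1, with 4.86 and 10.6 normalized counts on average and not called.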

How the data were processed

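Splenic B cells of 3 Ahr+/+ and 3 Ahr-/- mice were profiled by stranded polyA RNA sequencing, and libraries were grouped by the genotype in their labels. Raw counts per gene symbol were used as deposited by the authors. The authors' normalized values and their table of fold changes and p-values were not used. The submitters' processing notes list TopHat2, HTSeq, DESeq and the build mm10 without roles, and the strand setting is not given in the sources used here.

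Genes whose counts summed to 10 or more over all 6 libraries entered the quasi-likelihood test of edgeR 4.0.16 in R 4.3.3, with TMM scaling, genotype as the only term, a prior count of 0.125 and Benjamini-Hochberg adjustment over all tested genes. A gene was called at an adjusted p under 0.05. Normalized counts are counts divided by TMM-scaled library size relative to the mean library. Levels per kb use the union of GENCODE M21 exons on GRCm38. Floors and intervals cover the spread between these samples or counting error only, and nothing in the labels names a litter or day. DESeq2 1.42.0 gave an alternative, limma 3.58.1 was loaded with edgeR, and the other alternatives are given in the closing section. On simulated counts for 11847 genes of this comparison, with 200 changed, 179 were recovered with 15 false calls, and of 65 genes changed by 0.5 on the log2 scale 50 were recovered.

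The gene family and the lists were picked for description with earlier results of these data known, while membership in the family followed gene names alone. All members are accounted for. Values in every library are given for called members, the 3 uncalled with the largest fold change, the 2 nearest the threshold, the extremes of level in each set, the counterparts of called members and Ahr. Iars, Aars and Mars were added after their values were seen. From each list the called genes are named, up to 6. A few single values and 1 sequence are not reported here.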

Additional observations from a re-analysis of the deposited data

How the results depend on the processing

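The number of members called, all lower, was 1 as reported, 4 with DESeq2's Wald test, 2 with DESeq2's size factors, 2 with at least 10 counts in at least 3 libraries, and 0 with library size alone, with the replicate block or at an adjusted p under 0.01, and it ranged from 0 to 2 with libraries left out in turn. It was 0 without Ahr+/+ replicate 1 or 3 or Ahr-/- replicate 1 or 2. At an adjusted p under 0.01, 10.8% of tested genes were called. With library size alone, the median log2 fold change was 0.011 over the members, -0.019 for the cytosolic and 0.066 for the mitochondrial set, where the median of all tested genes moved from 0.0022 to 0.027. With libraries left out in turn these medians ranged from -0.023 to -0.0058, from -0.051 to -0.034 and from 0.021 to 0.033.

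In the related lists, the count of partners called ranged from 2 to 5 with libraries left out in turn, with 5 without Ahr-/- replicate 3. For the stress response it ranged from 5 to 12, for elongation from 0 to 1, for mitochondrial translation from 1 to 3 and for tRNA transcription and modification from 0 to 4. At an adjusted p under 0.01 these last 4 counts were 5, 0, 1 and 0. With library size alone the medians of the 5 lists, in the same order, were 0.060, 0.048, 0.0080, 0.042 and 0.011. With libraries left out in turn the median ranged from -0.019 to 0.036 for the stress response and from -0.0083 to 0.021 for mitochondrial translation. Fars2 ranked 34 by level with the longest annotated transcript.

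With library size alone the log2 fold change turned to 0.0092 for Farsa, 0.010 for Qars, 0.019 for Vars, 0.011 for Wars, 0.015 for Cars2, 0.019 for Sars2 and 0.00025 for Tars2. With libraries left out in turn the log2 fold change crossed 0 for Farsa (-0.029 to 0.00061), Qars (-0.036 to 0.0054), Vars (-0.029 to 0.026), Cars2 (-0.019 to 0.0048), Fars2 (-0.0018 to 0.14), Iars2 (-0.020 to 0.032), Lars2 (-0.070 to 0.22), Rars2 (-0.013 to 0.037) and Sars2 (-0.037 to 0.019). Of 504 values of single members under the alternatives, 469 kept direction and side of the threshold, 21 in 11 members turned direction, 7 fell short of the threshold and 7 passed it. The cause of these changes was not tested.

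The labels give both genotypes replicate numbers 1 to 3. Same-numbered libraries had correlations of deviations of -0.094, 0.15 and -0.21 over 8427 genes, and 1 of the 3 correlated best with its own number. Deviations from means of 3 libraries cannot decide whether same-numbered samples were paired. No pairing is stated in the labels, and none was assumed in the main test. With the replicate block 0 members and 1 gene of mitochondrial translation were called. With 3 mice per genotype no exact permutation p goes under 0.1, and a change as small as that of Eprs sits at the limit of what these libraries separate.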
